A study of Mus musculus with 30 samples.

Results

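The genes described here load peptides onto MHC class I molecules and carry them to the cell surface. They are 10 of the 48709 genes in the count tables: 5 class I heavy chains (H2-K1, H2-D1, H2-Q4, H2-Q7 and H2-T23), their partner chain B2m, both chains of the peptide transporter (Tap1 and Tap2) and 2 immunoproteasome subunits (Psmb8 and Psmb9). The 10 were chosen by name, with their levels in 5 tissues and their difference between genotypes in these libraries already known. Those levels and differences are therefore given as descriptions, and the counts of called genes among them support nothing by themselves.

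A class I molecule is a heavy chain held together with beta-2 microglobulin and a short peptide. Peptides are cut by the proteasome, carried into the endoplasmic reticulum by the TAP transporter and loaded there, and the finished complex shows them to CD8 T cells and natural killer cells. Interferon raises many of these genes, and in immune cells the inducible proteasome subunits take the places of their constitutive counterparts.

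The libraries came from 5 tissues of adult C57BL/6 mice: spleen, liver, kidney, quadriceps femoris muscle and brain. Each tissue had 3 libraries from wild-type (WT) mice, labelled as controls, and 3 from Ctcf+/- mice, which are haploinsufficient for the chromatin-looping factor CTCF in every tissue studied. The study was set up around intron retention, whereas the counts used here cover exons. The labels give neither ages beyond adult nor the way the Ctcf allele was disrupted, and the design text places the libraries of all 5 tissues in 3 mice per genotype without saying which libraries share a mouse.

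Depth was 49.8 M to 132 M counts per library, of which the 10 genes took 0.0165% to 1.12%. Ctcf itself was lower in all 3 Ctcf+/- libraries than in all 3 WT libraries of each of the 5 tissues, with a log2 difference shared by tissues of -0.63 ± 0.058 (SE). Marker genes of brain, kidney, liver and muscle summed to at least 7550 CPM (counts per 1 M counted) in their own tissue and to at most 1158 CPM elsewhere, and B cell markers summed to 3531 to 4884 CPM in spleen against at most 14.2 CPM elsewhere. In spleen, the libraries WT 1 and Ctcf+/- 2 stood apart from the other 4 on the first principal component, which held 53.0% of the variance, and the levels and log2 fold changes of the 10 genes in spleen are given with and without them. Marker genes of other organs were present at low levels in some libraries, and some moved with genotype. Liver markers summed to 32.8 to 42.1 CPM in WT spleen and 0.0900 to 0.344 in Ctcf+/- spleen, and kidney markers to 8.37 to 64.2 CPM in WT muscle and 0 to 3.85 in Ctcf+/- muscle. The reverse held in spleen for kidney markers, at 0 to 0.0906 CPM in WT and 10.6 to 21.5 in Ctcf+/-. In kidney, muscle markers summed to 158 CPM in WT 3 and 201 in Ctcf+/- 3, against 1.55 to 1.87 in the other libraries. Liver markers summed to 484 CPM in kidney Ctcf+/- 3, against 154 to 192 in the other kidney libraries. Their part in the results was not tested.

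Of the 10 genes, 9 lie on chromosome 17 and B2m lies at chr2:122147686-122153083 (GRCm38, plus strand). Psmb9 (chr17:34181988-34187764, minus strand), Tap1 (chr17:34187553-34197225, plus), Psmb8 (chr17:34197721-34201454, plus) and Tap2 (chr17:34203527-34216321, plus) stand side by side within 34334 bases. The heavy chains H2-K1 (chr17:33996017-34000333, minus), H2-D1 (chr17:35262730-35267499, plus), H2-Q4 (chr17:35379617-35385290, plus), H2-Q7 (chr17:35439155-35443773, plus) and H2-T23 (chr17:36029773-36032855, minus) lie outside that block, H2-K1 before it and the other 4 after it.

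The heavy chains resemble each other closely in sequence, which bears on how fragments were counted, since fragments that fit several places were left out of the deposited counts. The coding sequences of the 5 heavy chains agreed at 81.1% to 91.5% of aligned bases. The stretch given here codes for part of the membrane-proximal immunoglobulin-like domain, in exon 4 of each gene, and is the 90-base window in which the 5 genes agree at the most positions. It lies at chr17:33997377-33997466 in H2-K1, chr17:35265878-35265967 in H2-D1, chr17:35382952-35383041 in H2-Q4, chr17:35442361-35442450 in H2-Q7 and chr17:36030914-36031003 in H2-T23 (GRCm38, GENCODE vM21 transcripts, each on its gene's own strand, 5′ to 3′). Capitals mark the 3 of 90 positions at which the 5 genes do not all carry the same base.
H2-K1: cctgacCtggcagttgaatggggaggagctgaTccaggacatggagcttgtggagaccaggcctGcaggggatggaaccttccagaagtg
H2-D1: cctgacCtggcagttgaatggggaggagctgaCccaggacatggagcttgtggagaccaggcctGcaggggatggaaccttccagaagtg
H2-Q4: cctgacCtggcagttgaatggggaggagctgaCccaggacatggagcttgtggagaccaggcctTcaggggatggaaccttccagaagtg
H2-Q7: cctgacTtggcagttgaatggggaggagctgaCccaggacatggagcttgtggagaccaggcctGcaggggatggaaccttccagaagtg
H2-T23: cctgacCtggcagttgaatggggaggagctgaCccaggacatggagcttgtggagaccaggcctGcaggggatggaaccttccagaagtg

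H2-D1 and H2-T23 were identical over this window, and no base in it tells these 2 genes apart. Over whole transcripts the shared part was small for most of the genes. Of all 100-base words in the transcripts of H2-Q7, 11.98% also occurred in a transcript of another gene, most often H2-Q10. The share was 3.59% for H2-D1, 3.15% for H2-T23, 2.16% for H2-Q4 and 0.957% for H2-K1. B2m, Tap1, Tap2, Psmb8 and Psmb9 shared no such word with another gene. The read length is not given in the sources used here, so these shares describe the genes and not the fragments that were lost.

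Exon overlap is a second source of loss, because fragments over exons of several genes were also left out and strand was not used. Tap1 and Psmb9 start on opposite strands and share 212 exon bases. H2-Q4 shares 496 bases, 19.1% of its exon length, with Gm11131 on the other strand. Tap2 shares 698 bases (18.5%) with Gm15821 and Gm20496, and Psmb8 shares 186 bases (6.80%) with Gm20496. The other 5 genes had no exon overlap. Levels of Tap1, Tap2, Psmb8, Psmb9 and H2-Q4 per length are uncertain to that extent.

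The windows before the transcription starts show a second resemblance among the heavy chains. RefSeq windows (GRCm38.p6) of 250 bases before the start were found for 9 of the 10 genes and searched on both strands for 4 short motifs: the kappa B sequence GGGATTCCC, the core of the interferon-stimulated response element as GAANNGAAA, the CCAAT box as CCAAT, and TGACG. These motifs were picked after reading the class I windows. The kappa B sequence was present in 3 of the 9 windows (H2-K1, H2-D1 and H2-Q7) and in 0.301% of 32851 windows of all genes. The interferon core was present in 4 of the 9, in each case a heavy chain, against 6.31% of all windows. CCAAT was found in 8 of 9 against 33.8%, and TGACG in 7 of 9 against 17.8%. All 4 motifs together were present in 4 windows of the 32851, namely both windows of H2-K1 and those of H2-D1 and H2-Q7.

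No link between the motifs and genotype was tested, and the H2-D1 window, which holds all 4, is not printed. The parts of 4 windows that hold the motifs are given here because their genes include H2-Q4 and H2-Q7, whose genotype differences are described further on. They are H2-K1 (chr17:34000354-34000462, minus strand), H2-Q4 (chr17:35379459-35379571, plus), H2-Q7 (chr17:35439018-35439148, plus) and H2-Q6 (chr17:35424673-35424804, plus), the last a class I gene next to H2-Q7 that is not among the 10. Each is written 5′ to 3′ on the gene's strand, and capitals mark the motifs, none of which overlap. The H2-Q4 window lies over an exon of Gm11131.
H2-K1: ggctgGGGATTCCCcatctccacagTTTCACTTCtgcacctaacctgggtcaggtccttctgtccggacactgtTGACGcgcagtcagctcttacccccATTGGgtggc
H2-Q4: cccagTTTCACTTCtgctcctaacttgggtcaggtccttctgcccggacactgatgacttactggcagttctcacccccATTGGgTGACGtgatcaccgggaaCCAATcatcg
H2-Q7: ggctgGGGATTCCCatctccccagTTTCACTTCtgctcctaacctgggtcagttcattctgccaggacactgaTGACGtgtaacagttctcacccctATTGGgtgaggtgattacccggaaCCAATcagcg
H2-Q6: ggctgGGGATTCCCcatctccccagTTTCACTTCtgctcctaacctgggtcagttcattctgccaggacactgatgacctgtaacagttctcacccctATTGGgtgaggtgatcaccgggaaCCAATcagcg

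H2-Q4 lacked the kappa B letters and H2-Q6 lacked TGACG. Among the remaining windows, those of B2m, Tap1 and Psmb9 held CCAAT and TGACG, and that of H2-T23 held CCAAT. The Psmb8 window held none of the 4. Its last 60 bases (chr17:34198135-34198194) overlap a Psmb8 exon of the count tables, where the gene starts earlier, at chr17:34197721. The motif-holding parts of the H2-D1, H2-T23 and Psmb9 windows also overlap exons of their own gene, and that of Tap1 an exon of Psmb9. The windows of Tap1 and Psmb9 share 275 of their 300 bases (250 before and 50 after each start), so their motifs are one set and not 2. A match is a description of letters and not of a bound site.

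Levels per length are given as TPM (a level per exon length that sums to 1 M in a library, from the deposited exon lengths) in WT tissue, as mean ± SD (n = 3). In these bulk samples fewer cells of a type and less RNA per cell cannot be told apart. Of the 10 genes, 9 were highest in spleen and 1, B2m, was highest in liver, and the lowest tissue was brain for 6 genes and muscle for 4. These orders depend in part on the scaling. Brain was lowest for 8 genes by CPM within tissues, and for 10 by CPM with TMM factors over all 30 libraries, where spleen was highest for 7 and liver for 3. Without spleen WT 1, spleen was highest for 10 of 10 by TPM, and the spleen levels were 0.980 to 1.11 times those given here. The highest tissue exceeded the lowest by a median of 79.1-fold, from 16.6-fold for Tap2 to 1022-fold for H2-Q7.

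H2-K1 and H2-D1 are the classical heavy chains, which present peptides to CD8 T cells. H2-K1 measured 2569 ± 266 TPM in spleen, 1255 ± 133 in liver, 337 ± 28.4 in kidney, 61.2 ± 12.1 in muscle and 33.0 ± 4.58 in brain. H2-D1 measured 2221 ± 115 TPM in spleen, 542 ± 36.0 in liver, 325 ± 21.9 in kidney, 83.5 ± 17.5 in muscle and 47.6 ± 2.67 in brain. For both genes no 2 neighbours in this order overlapped across the 3 libraries. The spleen level was 2.05 times the liver level for H2-K1 and 4.10 times for H2-D1. With TMM factors over all 30 libraries these ratios were 0.864 and 1.75, so that liver led for H2-K1, and its spleen and liver libraries overlapped.

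H2-T23 encodes Qa-1, which presents leader peptides of other class I chains to natural killer cell receptors. It measured 447 ± 24.4 TPM in spleen, 204 ± 5.88 in liver, 161 ± 1.09 in kidney, 16.4 ± 2.14 in brain and 10.6 ± 2.59 in muscle. Spleen and liver overlapped with TMM factors over all 30 libraries, where the spleen level was 0.943 times that of liver. H2-T23 was the most even of the heavy chains in TPM, with a 42.3-fold range against 46.6-fold to 1022-fold for the other 4.

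H2-Q7 encodes Qa-2, a heavy chain anchored by a lipid, and H2-Q4 is another non-classical chain of the Q region. H2-Q7 measured 317 ± 56.1 TPM in spleen, 38.4 ± 4.63 in liver, 15.5 ± 1.74 in kidney, 1.78 ± 0.858 in muscle and 0.310 ± 0.0427 in brain, where it rested on 18 or more counts per library. H2-Q4 measured 284 ± 45.6 TPM in spleen, 33.6 ± 3.27 in liver, 32.3 ± 1.13 in kidney, 10.2 ± 1.83 in muscle and 2.92 ± 0.402 in brain. The spleen level was 8.25 times that of liver for H2-Q7 and 8.46 times for H2-Q4, and 3.52 and 3.60 times with TMM factors over all 30 libraries. On both scales the step was larger than for the classical chains. Liver and kidney overlapped for H2-Q4 and not for H2-Q7.

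B2m had the highest TPM of the 10 genes in every tissue and the flattest order at the top. It measured 3997 ± 167 TPM in liver and 3956 ± 552 in spleen, which overlapped, then 839.8 ± 102 in kidney, 278 ± 7.09 in brain and 173 ± 47.2 in muscle. The order of spleen and liver changed with the libraries and the scaling. The spleen level was 0.990 times that of liver, 1.06 times without spleen WT 1, and 0.417 times with TMM factors over all 30 libraries, where the 2 tissues did not overlap. The summed TPM of 30 class I genes was 1.85 ± 0.0790 times that of B2m in WT spleen, 1.24 ± 0.115 times in kidney, 1.15 ± 0.141 times in muscle, 0.852 ± 0.0289 times in liver and 0.518 ± 0.0369 times in brain. The ratio was above 1 in every WT library of spleen, kidney and muscle and below 1 in every WT library of liver and brain.

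The makeup of that class I sum also differed by tissue. H2-K1 and H2-D1 made up 35.3% ± 1.27 and 30.6% ± 1.91 of it in spleen, 32.6% ± 0.896 and 31.6% ± 0.925 in kidney, and 31.3% ± 0.849 and 42.6% ± 1.67 in muscle. In liver H2-D1 made up 15.9% ± 1.009 against 36.9% ± 3.31 for H2-K1, and 33.7% ± 3.33 of the sum was H2-Q10, a secreted class I chain made in liver. In brain H2-D1 led with 33.1% ± 1.13, and H2-T22 and H2-T23, both from the T region, took 13.02% ± 0.631 and 11.4% ± 1.81. H2-Q7 reached 4.34% ± 0.497 in spleen and 1.505% ± 0.113 in kidney.

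**Figure D1:**
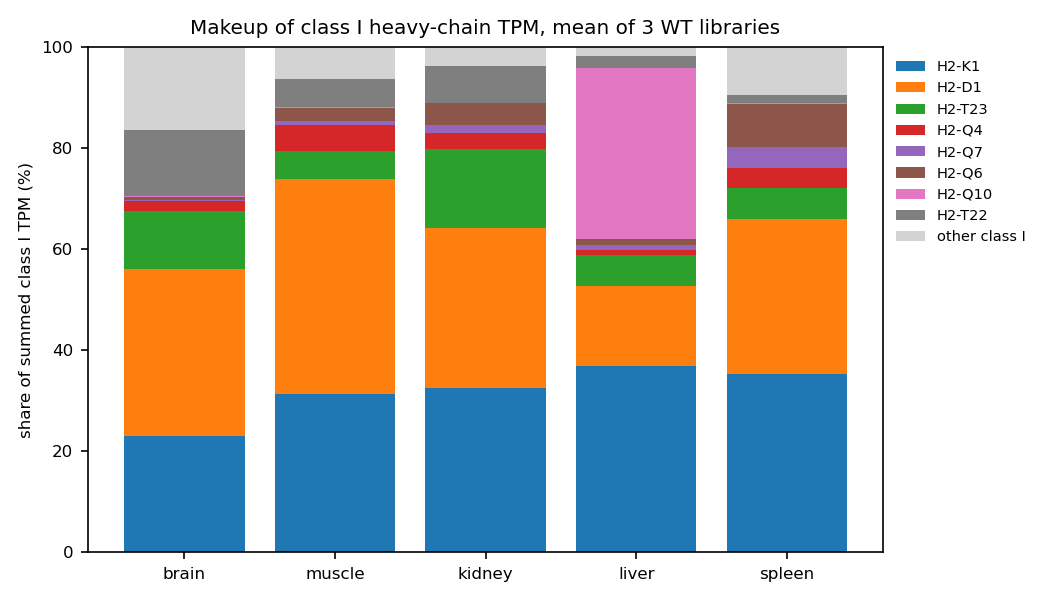
Share of summed class I TPM (y axis, percent) taken by each heavy-chain gene in the 5 tissues (x axis), as the mean of 3 WT libraries. H2-K1 and H2-D1 together fill more than 50% of each bar, and in liver H2-Q10 takes a further 33.7%.

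Tap1 and Tap2 form the transporter together, yet their transcripts were not kept in one ratio. Tap1 measured 125 ± 28.7 TPM in spleen, 10.9 ± 1.55 in liver, 7.25 ± 0.519 in kidney, 1.88 ± 0.306 in brain and 1.54 ± 0.400 in muscle. Tap2 measured 85.7 ± 12.2 TPM in spleen, 14.4 ± 1.06 in kidney, 11.5 ± 0.776 in liver, 5.52 ± 0.544 in brain and 5.17 ± 0.984 in muscle. The Tap1 to Tap2 ratio was 1.45 ± 0.187 in WT spleen, 0.948 ± 0.154 in liver, 0.504 ± 0.00155 in kidney, 0.342 ± 0.0621 in brain and 0.296 ± 0.0283 in muscle. Brain and muscle overlapped for both genes, and with TMM factors over all 30 libraries they did not overlap and brain was the lower.

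Psmb8 and Psmb9 replace the constitutive catalytic subunits Psmb5 and Psmb6 in the immunoproteasome. Psmb8 measured 218 ± 26.2 TPM in spleen, 24.8 ± 3.88 in liver, 15.9 ± 0.939 in kidney, 3.84 ± 1.05 in muscle and 2.56 ± 0.338 in brain. Psmb9 measured 102 ± 12.04 TPM in spleen, 13.6 ± 2.65 in liver, 7.67 ± 0.0992 in kidney, 1.97 ± 0.620 in muscle and 1.27 ± 0.0892 in brain. Both genes had the same order of tissues, and no neighbours in it overlapped.

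Set against its counterpart, Psmb8 made up 54.5% ± 2.01 of the summed TPM of Psmb8 and Psmb5 in WT spleen, 12.9% ± 1.37 in liver, 4.51% ± 0.144 in kidney, 1.02% ± 0.195 in muscle and 0.970% ± 0.193 in brain. Psmb9 made up 45.4% ± 3.17 of its pair with Psmb6 in spleen, 8.08% ± 1.31 in liver, 4.10% ± 0.303 in kidney, 0.852% ± 0.150 in muscle and 0.749% ± 0.0956 in brain. The third inducible subunit, Psmb10, is not among the 10. It made up 80.3% ± 3.04 of its pair with Psmb7 in spleen, 47.4% ± 1.90 in brain and 15.6% ± 4.04 in muscle.

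**Figure D2:**
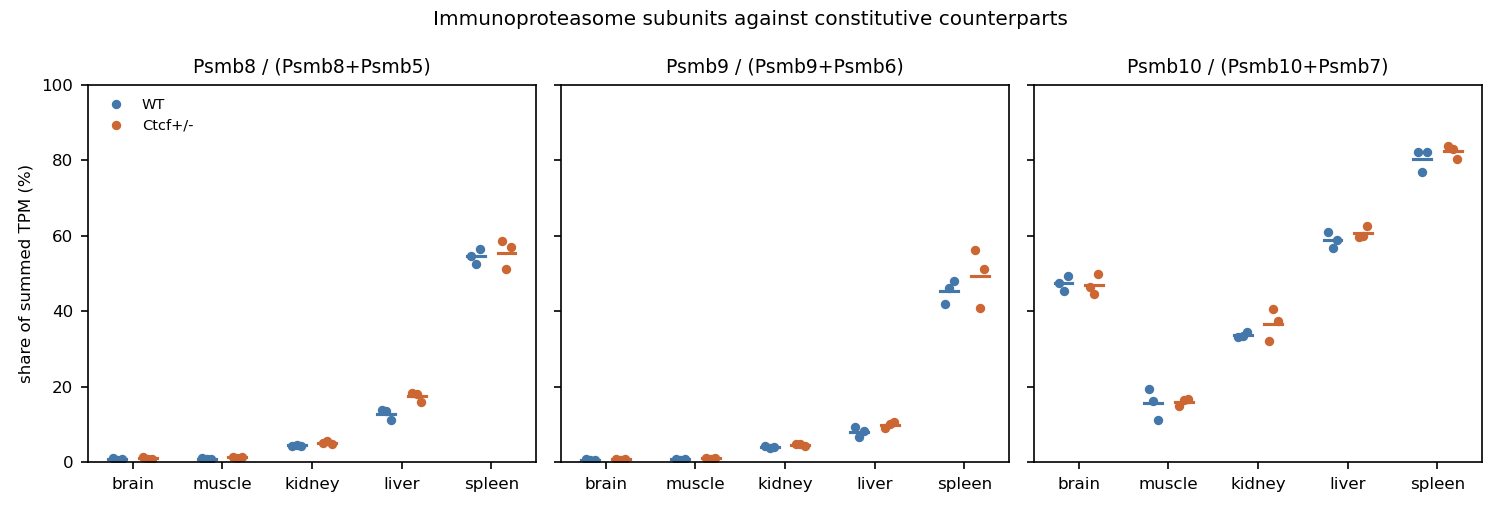
Share of each inducible proteasome subunit in the summed TPM of itself and its constitutive counterpart (y axis, percent) by tissue. Points are libraries, bars are means of 3, and both genotypes are shown; Psmb8 and Psmb9 pass 40% only in spleen, while Psmb10 does not fall below 11.3% in any library.

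The genotype comparison asks whether these genes differ when one copy of Ctcf is lost. Values from here on are CPM with TMM scaling within a tissue, and log2 fold changes are Ctcf+/- minus WT with their SE from edgeR. Over the 10 genes and 5 tissues, 46 of 50 log2 fold changes were above 0, by tissue 10 of 10 in spleen (48.9% of all genes tested), 10 in liver (47.6%), 9 in muscle (48.4%), 9 in brain (48.2%) and 8 in kidney (50.1%). All 3 Ctcf+/- libraries lay above all 3 WT libraries in 15 of the 50, below in 1, and the groups overlapped in 34. The median over the 10 genes was 0.30 in muscle, 0.21 in kidney, 0.20 in brain, 0.18 in liver and 0.10 in spleen. Over all genes tested the medians were -0.0075, 0.00022, -0.0043, -0.011 and -0.0044 in the same order.

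By edgeR's quasi-likelihood test with Benjamini-Hochberg adjustment over all genes tested, 0 of the 10 were called at an adjusted p under 0.05 in each tissue, where 0.242% of genes were called in spleen, 0.0193% in liver, 0.0211% in kidney, 0.0249% in muscle and 0.0157% in brain. DESeq2 also called 0 of 10 in each tissue, where it called 0.809% of genes in spleen, 0.358% in liver, 1.01% in kidney, 1.03% in muscle and 0.153% in brain. With the replicate number as a block edgeR called 0 of 10 as well, and of all genes 0% in spleen, 0.0449% in liver, 0.111% in kidney, 0.735% in muscle and 0.115% in brain. At an unadjusted p under 0.05 the counts were 3 of 10 in kidney (6.44% of all genes), 2 in liver (4.56%), 1 in brain (2.96%), 1 in muscle (6.45%) and 0 in spleen (3.52%). Genes with all Ctcf+/- libraries above all WT libraries numbered 4 of 10 in kidney (6.15% of all genes), 4 in liver (4.68%), 3 in spleen (4.35%), 3 in muscle (5.91%) and 1 in brain (3.73%). The reverse was found for 1 of 10 in kidney (5.28%) and for 0 of 10 in brain (4.1%), liver (4.31%), muscle (6.28%) and spleen (2.29%).

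**Figure D3:**
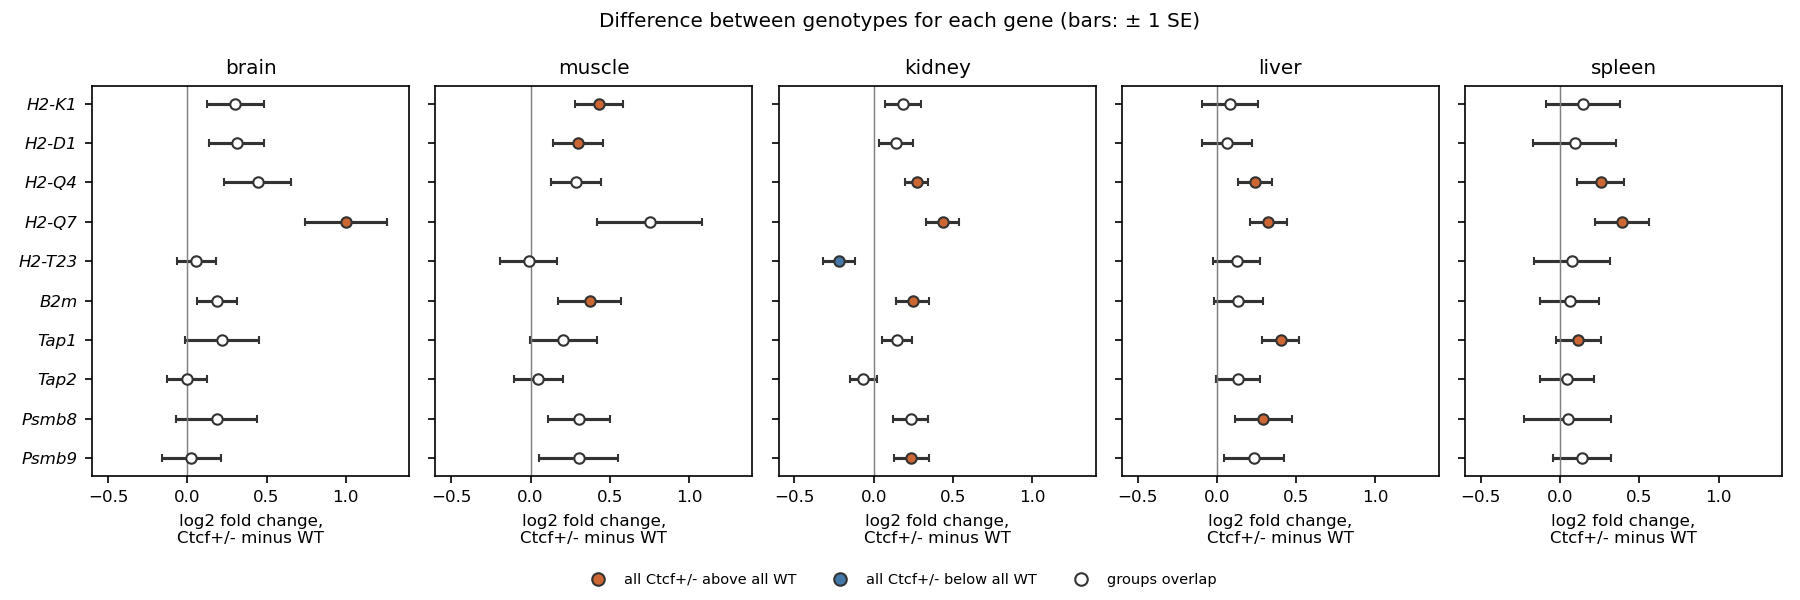
Log2 fold change between genotypes (x axis, Ctcf+/- minus WT, bars ± 1 SE) for the 10 genes (y axis) in each tissue. Filled points mark groups of 3 that do not overlap; H2-Q7 is filled in 4 tissues and H2-T23 in kidney is the single filled point below 0.

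H2-Q7 had the widest separation. In brain its 3 WT libraries measured 0.477, 0.399 and 0.363 CPM and its Ctcf+/- libraries 1.10, 0.650 and 0.778, a fold of 2.04 and a log2 fold change of 1.002 ± 0.258. In kidney the WT libraries measured 30.0, 31.1 and 25.0 CPM and the Ctcf+/- libraries 35.8, 40.5 and 40.2, a log2 fold change of 0.44 ± 0.11. All Ctcf+/- libraries were above all WT libraries in both tissues.

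The same separation of H2-Q7 was present in liver and spleen. In liver the WT libraries measured 72.1, 79.1 and 76.9 CPM and the Ctcf+/- libraries 89.2, 92.0 and 104, a log2 fold change of 0.32 ± 0.12. In spleen the WT libraries measured 601, 648 and 527 CPM and the Ctcf+/- libraries 847, 725 and 756, a log2 fold change of 0.39 ± 0.17, and of 0.44 without WT 1 and Ctcf+/- 2. In muscle the groups overlapped, with 5.16, 3.07 and 1.91 CPM in WT and 6.43, 4.51 and 6.15 in Ctcf+/-, where the log2 fold change was 0.75 ± 0.33. By CPM H2-Q7 separated in 4 of 5 tissues, H2-Q4 in 3, and the other 8 genes in at most 2. These counts depend on the scale. By TPM H2-Q7 overlapped in spleen (252 to 351 in WT, 306 to 527 in Ctcf+/-), as did H2-Q4 (239 to 331 and 268 to 424). H2-K1 separated by TPM in kidney (308 to 364 in WT, 368 to 404 in Ctcf+/-), liver (1130 to 1395 and 1409 to 1452) and muscle (47.4 to 70.1 and 81.3 to 84.4).

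H2-Q4 separated in 3 tissues. In kidney its WT libraries measured 36.4, 37.2 and 35.4 CPM and its Ctcf+/- libraries 43.6, 45.1 and 42.8, a log2 fold change of 0.27 ± 0.074. In liver the WT libraries measured 44.1, 39.3 and 38.1 CPM and the Ctcf+/- libraries 47.9, 46.6 and 49.0, a log2 fold change of 0.24 ± 0.11. In spleen the WT libraries measured 348, 317 and 305 CPM and the Ctcf+/- libraries 415, 387 and 356, a log2 fold change of 0.26 ± 0.15, and of 0.30 without WT 1 and Ctcf+/- 2. Brain and muscle overlapped, with log2 fold changes of 0.44 ± 0.21 and 0.29 ± 0.16.

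By CPM the classical chains separated in 1 tissue each, fewer than H2-Q7 and H2-Q4. H2-K1 separated in muscle, where the WT libraries measured 81.5, 76.9 and 54.0 CPM and the Ctcf+/- libraries 92.5, 95.4 and 98.6, a log2 fold change of 0.43 ± 0.15. H2-D1 did so too, with 110, 105 and 71.5 CPM in WT against 120, 117 and 116 in Ctcf+/-, a log2 fold change of 0.30 ± 0.16. WT library 3 was the low one for both genes. In the other 4 tissues the groups overlapped by CPM and the log2 fold changes lay between 0.061 and 0.31.

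H2-T23 was the one gene with a separation downwards. In kidney its WT libraries measured 196, 211 and 200.2 CPM and its Ctcf+/- libraries 172, 156 and 193, a fold of 0.858 and a log2 fold change of -0.22 ± 0.10. In the other tissues its groups overlapped, with log2 fold changes from -0.013 in muscle to 0.12 in liver, and the muscle value was above 0 with total-count scaling.

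B2m, the common partner chain, separated in kidney and muscle by CPM. In kidney its WT libraries measured 338, 327 and 274 CPM and its Ctcf+/- libraries 364, 390 and 360, a log2 fold change of 0.25 ± 0.10. In muscle the WT libraries measured 76.9, 77.0 and 44.6 CPM and the Ctcf+/- libraries 93.3, 82.3 and 81.5, a log2 fold change of 0.37 ± 0.20. By TPM B2m overlapped in kidney (735 to 939 in WT, 919 to 1069 in Ctcf+/-). It separated by TPM in muscle and also in liver (3830 to 4165 in WT, 4493 to 4988 in Ctcf+/-).

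Of the transporter chains, Tap1 separated by CPM in liver and spleen and Tap2 in no tissue. In liver the WT libraries of Tap1 measured 29.8, 25.5 and 27.5 CPM and the Ctcf+/- libraries 33.7, 38.3 and 37.4, a log2 fold change of 0.40 ± 0.11. In spleen they measured 300, 290 and 302 against 352, 306 and 308 CPM, a log2 fold change of 0.12 ± 0.14, and of 0.14 without WT 1 and Ctcf+/- 2. By TPM Tap1 overlapped in spleen (97.9 to 155 in WT, 101 to 171 in Ctcf+/-). Tap2 had log2 fold changes from -0.065 in kidney to 0.13 in liver. In kidney the Tap1 to Tap2 ratio was 0.502 to 0.505 in WT and 0.565 to 0.592 in Ctcf+/- libraries, so the pair's balance separated there although neither chain did.

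The immunoproteasome subunits separated once each by CPM. Psmb8 in liver measured 37.0, 36.1 and 23.2 CPM in WT and 38.7, 41.7 and 37.4 in Ctcf+/-, a log2 fold change of 0.29 ± 0.18. Psmb9 in kidney measured 11.7, 12.5 and 12.3 CPM in WT and 13.03, 13.9 and 16.1 in Ctcf+/-, a log2 fold change of 0.24 ± 0.11. The share of Psmb8 in its pair with Psmb5 in liver was 13.8%, 13.5% and 11.3% in WT and 18.5%, 18.1% and 15.9% in Ctcf+/- libraries, which did not overlap either. In kidney that share also separated, with 4.46%, 4.67% and 4.39% in WT and 5.21%, 5.68% and 4.85% in Ctcf+/- libraries. It overlapped in brain, muscle and spleen. The share of Psmb9 in its pair with Psmb6 overlapped in every tissue. It was 3.89% to 4.44% in WT and 4.42% to 4.92% in Ctcf+/- kidney, and 6.71% to 9.32% and 9.06% to 10.6% in liver.

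**Figure D4:**
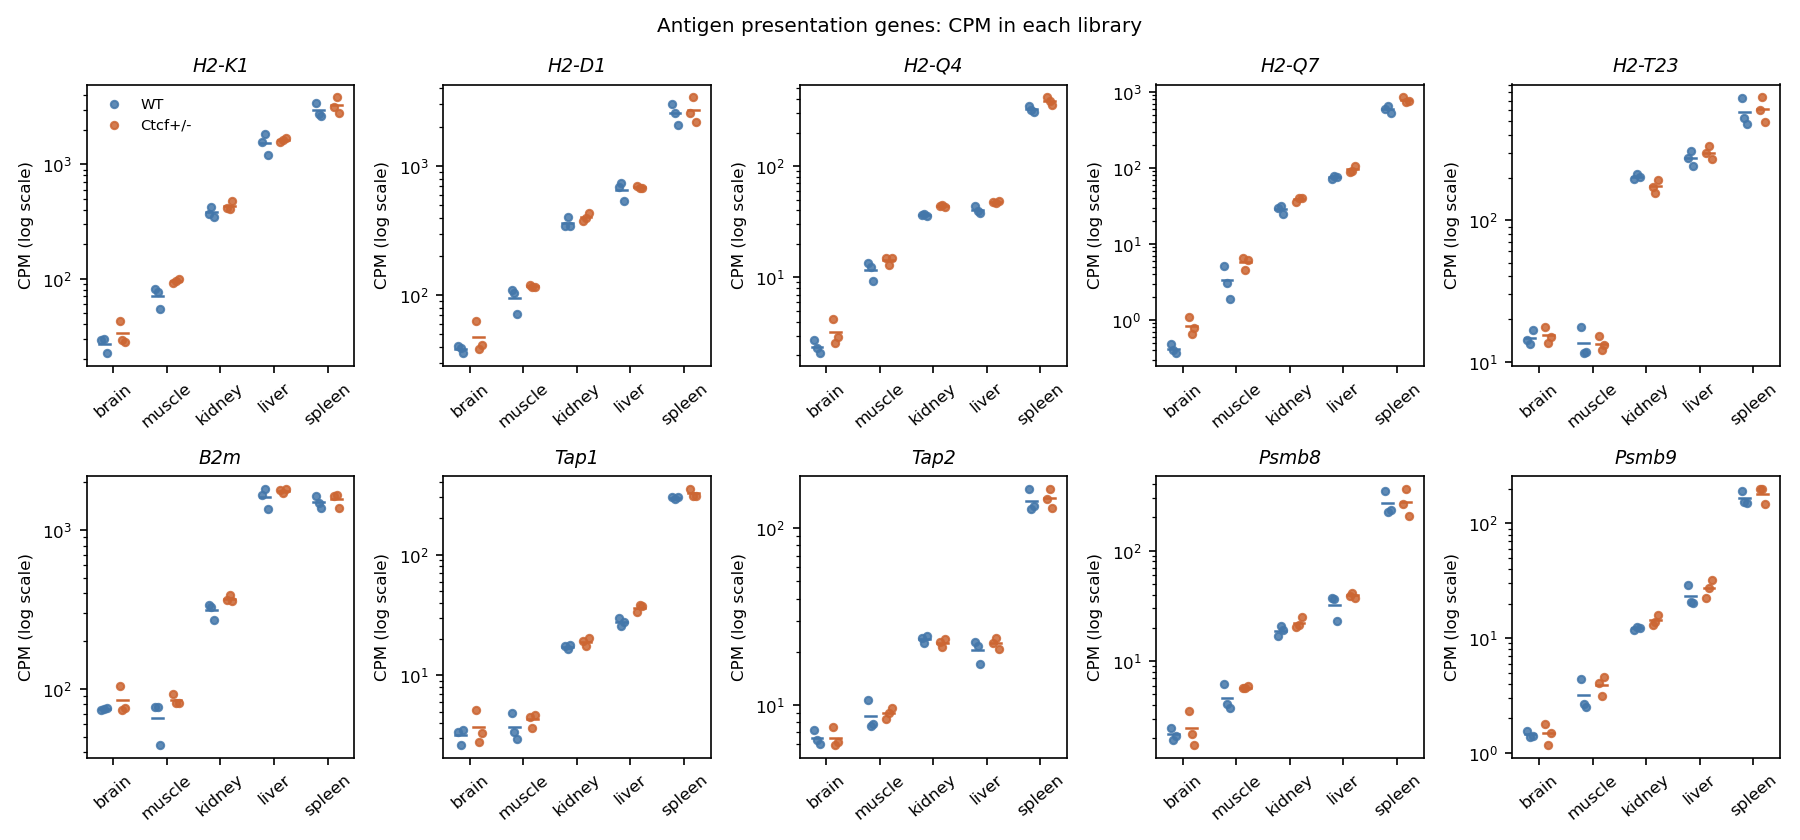
CPM of each of the 10 genes (y axis, log scale) in every library of 5 tissues (x axis), with points for libraries, a bar for the mean of 3, and WT beside Ctcf+/-. The tissues spread over 1 to 3 orders of magnitude, against which the genotypes lie close together, and H2-Q7 in brain shows the largest gap, from 0.413 to 0.841 CPM on average.

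In a fit of all 30 libraries with tissue and genotype, 2 of the 10 genes, H2-Q7 and H2-Q4, were called for a difference shared by tissues, where edgeR called 0.194% of 24262 genes and 0.165% in the higher direction. The shared log2 fold change was 0.55 ± 0.11 for H2-Q7 and 0.31 ± 0.064 for H2-Q4. For the other 8 it ran from 0.022 for H2-T23 and 0.048 for Tap2 to 0.24 for H2-K1. A log2 fold change above 0 in all 5 tissues was found for 8 of the 10, all but H2-T23 and Tap2, and for 4.98% of the genes tested in all 5. Libraries of different tissues share mice, whereas this fit takes the 30 libraries as independent, so its SE and p-values may be too small. No member was called for an effect that differed between tissues (0 of 10 by edgeR and by DESeq2, and 0 at an unadjusted p under 0.05), where edgeR called 0.758% of all genes, DESeq2 3.81%, and 6.66% had an unadjusted p under 0.05.

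Both shared calls rest on several tissues together. With 1 tissue left out, the number called was 0 without brain, kidney, liver or spleen and 1 without muscle. The log2 fold changes stayed between 0.47 and 0.60 for H2-Q7 and between 0.26 and 0.32 for H2-Q4 in these fits, which hold fewer libraries. With 1 library left out, H2-Q7 was called in 30 of 30 fits and H2-Q4 in 17 of 30. H2-Q4 lost its call without brain WT 2 or 3, kidney WT 2 or 3, kidney Ctcf+/- 1 or 2, liver WT 3, liver Ctcf+/- 1, muscle WT 3, muscle Ctcf+/- 1 or 3, spleen WT 2 or spleen Ctcf+/- 1, at log2 fold changes of 0.27 to 0.33 over all 30 fits, against 0.49 to 0.62 for H2-Q7. DESeq2, and limma-voom with libraries of one genotype and number as a block, called both genes, beside 0.634% and 0.276% of all genes.

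Single libraries also set part of the medians. The median of the 10 genes in brain was 0.20, and -0.015 without Ctcf+/- library 1, in which H2-D1 reached 63.3 CPM and B2m 105 CPM against at most 41.1 and 76.5 in the other 5 libraries. Interferon-stimulated genes moved with it: 23 of them summed to 139 CPM in that library and to 55.3 to 66.4 CPM in the other 5. Neutrophil markers did so too, at 12.3 CPM against 1.18 to 5.15 in the other 5. The part of either in the brain values was not tested. In spleen the median was 0.10, 0.26 without WT 1, 0.0080 without Ctcf+/- 2 and 0.12 without both. Without both, the 8 genes other than H2-Q7 and H2-Q4 had log2 fold changes from 0.019 for H2-D1 to 0.19 for Psmb9. In liver it was 0.073 without WT 3, in muscle 0.47 without WT 1 and 0.15 without WT 3, and in kidney 0.12 without Ctcf+/- 3.

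The same interferon-stimulated genes, a list that holds none of the 10, lay higher in Ctcf+/- libraries beside these results. Their sum was 516 to 528 CPM in Ctcf+/- kidney against 412 to 488 in WT, 1143 to 1571 against 941 to 1123 in liver, and 111 to 138 against 75.8 to 101 in muscle, with no overlap in these 3 tissues. In brain (55.3 to 139 against 56.5 to 64.7 CPM) and spleen (1569 to 2372 against 1038 to 2155 CPM) the sums overlapped. For the shared effect edgeR called 2 of the 23 (0.194% of all genes) and DESeq2 7 (0.634%), and 17 had an unadjusted p under 0.05 (5.91%). Within tissues edgeR called 0 of them, while DESeq2 called 7 in liver (0.358% of all genes), 4 in kidney (1.01%), 1 in muscle (1.03%) and 0 in brain and spleen. At an unadjusted p under 0.05 there were 16 in liver (4.56% of all genes), 10 in kidney (6.44%), 6 in muscle (6.45%), 2 in brain (2.96%) and 1 in spleen (3.52%). The part of interferon-stimulated expression in the class I differences was not tested.

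Markers of other cell types are set beside these values, and all 6 T cell and 6 macrophage markers had counts in kidney, liver and muscle. T cell markers summed to 7.04 to 11.2 CPM in WT kidney and 7.77 to 8.998 in Ctcf+/- kidney, and to 3.72 to 7.56 and 4.204 to 4.39 CPM in liver. Macrophage markers summed to 150 to 200 CPM in WT kidney and 208 to 248 in Ctcf+/- kidney, without overlap, and to 279 to 510 and 311 to 336 CPM in liver. In muscle, the tissue with the largest median of the 10 genes, T cell markers summed to 0.571 to 0.712 CPM in WT and 0.806 to 4.05 in Ctcf+/- libraries, without overlap. Macrophage markers there summed to 13.0 to 26.1 and 20.8 to 50.8 CPM, which overlapped. In liver, B cell markers (10.6 to 14.2 CPM in WT, 8.54 to 10.59 in Ctcf+/-) and endothelial markers (93.2 to 108 and 64.6 to 83.5 CPM) were lower in Ctcf+/- libraries without overlap. In spleen, neutrophil markers ran from 600 to 3275 CPM in WT and from 2244 to 5160 in Ctcf+/-, and erythroid markers from 5688 to 37336 and from 7428 to 31623 CPM. Without spleen WT 1 and Ctcf+/- 2 the neutrophil sums were 600 and 664 CPM in WT and 2244 and 5160 in Ctcf+/-. The part of these cells in the results was not tested.

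Within groups the 10 genes were high or low together from library to library. After each group's mean was subtracted from log2 CPM, the 45 pairs among the 10 had Pearson r of 0.42 to 0.94 over 30 libraries, with a median of 0.69, and 39 of the 45 were above 0.5. H2-K1 and H2-D1 were the closest pair (0.94), and H2-K1 and Tap1 the loosest (0.42). These deviations share each library's scaling and, for neighbouring genes, the overlapping exons described above. All 10 genes were above their group mean in brain Ctcf+/- 1 and muscle WT 1, and none was in brain Ctcf+/- 2, liver WT 3, muscle WT 3 or spleen Ctcf+/- 3.

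**Figure D5:**
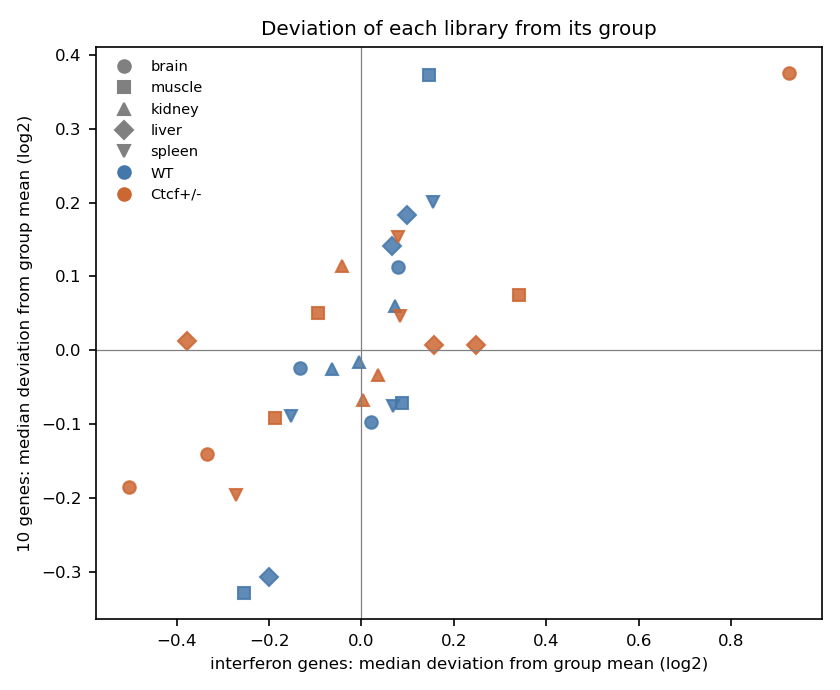
Median deviation of each of 30 libraries from its own group mean (log2), for 23 interferon-stimulated genes (x axis) and for the 10 antigen presentation genes (y axis), with tissue as symbol and genotype as colour. Brain Ctcf+/- 1 lies at the upper right (0.92 and 0.38), and muscle WT 3 and liver WT 3 are lowest on the y axis (-0.33 and -0.31).

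Genes outside the 10 were ranked by how closely they followed the members' mean profile, among 14924 genes. By the deviations from group means the closest were Sult1a1 (r = 0.85), a sulfotransferase, then Bst2 (0.84), Cxcl10 (0.81), Ifi27l2a (0.81) and Acp5 (0.81). Bst2 encodes an antiviral membrane protein and Cxcl10 a chemokine, both known to be induced by interferon. By levels over the 30 libraries, where differences between tissues dominate, the closest were Smarcd2, Irf1, Ifi47, Phf11c and Dnase2a, each with r of 0.99. Irf1 is a transcription factor of the interferon response that acts on class I promoters.

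The other genes of the pathway were followed in a list of 59 (class I and class I-like genes, loading factors and peptidases, proteasome subunits, and transcription and signalling), of which 49 to 53 were tested per tissue. edgeR called 0 of them in each of the 5 tissues, where it called 0.0157% to 0.242% of all genes. At an unadjusted p under 0.05 kidney had 5, of which 1 (Jak2) was lower in Ctcf+/-, liver had 4, muscle 3, and brain and spleen 0. These are 5 of 53 in kidney beside 6.44% of all genes, 4 of 53 in liver beside 4.56%, and 3 of 49 in muscle beside 6.45%, so the muscle count is near that of all genes. For the effect shared by tissues edgeR called 0 of 55 tested, beside 0.194% of all genes. There 11 of the 55 had an unadjusted p under 0.05, all higher in Ctcf+/-, beside 5.91% of all genes. Log2 fold changes above 0 numbered 41 of 55, with 16 of 16 among class I and class I-like genes and 4 of 9 among proteasome genes. At an adjusted p under 0.05 DESeq2 called 1 in kidney (H2-Q6), 1 in muscle (Cd1d1) and 0 elsewhere. Of all genes it called 1.01% in kidney, 1.03% in muscle and 0.153% to 0.809% elsewhere. Their median log2 fold changes lay between 0.023 and 0.035 in the 5 tissues, and those of the 10 between 0.10 and 0.30. Of the 20 class I and class I-like genes in the list, 10 were tested in muscle and 14 in each other tissue, and their medians were 0.27 in kidney, 0.26 in muscle, 0.25 in liver, 0.092 in brain and 0.069 in spleen, beside 0.21, 0.30, 0.18, 0.20 and 0.10 for the 10 genes.

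H2-Q6, the neighbour of H2-Q7 whose coding sequence is identical to it at 95.4% of aligned bases, had the smallest adjusted p for the shared effect among the related genes in edgeR. In kidney its WT libraries measured 41.4, 43.5 and 35.1 CPM and its Ctcf+/- libraries 56.0, 53.8 and 59.5, a log2 fold change of 0.50 ± 0.10 (edgeR adjusted p = 0.246, DESeq2 adjusted p = 0.00824). All its Ctcf+/- libraries also lay above all WT libraries by CPM in liver (0.52 ± 0.13), muscle (0.92 ± 0.29) and spleen (0.29 ± 0.16, and 0.37 without WT 1 and Ctcf+/- 2), and the groups overlapped in brain. By TPM H2-Q6 overlapped in spleen (506 to 739 in WT, 543 to 965 in Ctcf+/-). For the effect shared by tissues its log2 fold change was 0.60 ± 0.14, with an adjusted p of 0.0558 by edgeR, 0.00573 by DESeq2 and 0.00835 by limma-voom with the block. Because 10.8% of the 100-base words of H2-Q6 occur in other genes, chiefly H2-Q7, values of these 2 genes are not independent of how their fragments were assigned.

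Other related genes with separated groups did not pass the adjusted test. In kidney H2-T24 had a log2 fold change of 0.37 ± 0.12 (edgeR adjusted p = 0.604). In liver Stat2 had 0.37 ± 0.14 and H2-Q2, at 0.423 CPM in WT, had 0.81 ± 0.28. In muscle H2-Q10, the secreted chain of liver, measured 1.58, 1.57 and 0.427 CPM in WT and 3.98, 1.76 and 5.48 in Ctcf+/-, a log2 fold change of 1.64 ± 0.54 (edgeR adjusted p = 0.587). In brain H2-T10 and the peptidase Npepps had 0.22 ± 0.17 and 0.045 ± 0.050.

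Transcription factors and constitutive subunits give a contrast to the members. Nlrc5, the class I transactivator, had log2 fold changes above 0 in all 5 tissues, from 0.23 in muscle to 0.49 in liver and spleen (0.58 in spleen without WT 1 and Ctcf+/- 2), but its groups overlapped in each, and its shared log2 fold change of 0.41 ± 0.16 had an edgeR adjusted p of 0.581. None of the 9 other proteasome genes reached an unadjusted p under 0.05 in any tissue or for the shared effect, where their median log2 fold change was -0.013. Psmb10, the inducible subunit outside the 10, had 0.054 ± 0.094.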

How the data were processed

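RNA-seq fragment counts per gene were deposited for 30 libraries, in 1 table per tissue. Per the file headers, the authors counted fragments over exons with featureCounts 1.5.0-p3 (paired ends, no strand, fragments that fit several genes or places left out) on alignments from IRFinder, with Ensembl release 86 of GRCm38. STAR, FastQC and DESeq2 are named in the submitters' processing notes without versions or roles. Exon length per gene came from the same deposited tables. The labels' protocols give TRIzol extraction and a standard Illumina library.

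Counts were tested with edgeR 4.0.16 (R 4.3.3) in each tissue: filterByExpr, TMM scaling, quasi-likelihood test, Benjamini-Hochberg adjustment over all genes tested, called at an adjusted p under 0.05. Fits of all 30 libraries tested an interaction of tissue with genotype and an effect shared by tissues. TPM used the deposited exon lengths. Scripts were tested on simulated data. Replicate pairs of one group differed by more than sampling noise (chi-square per degree of freedom 15.4 to 640), and none was merged. P-values measure the spread between these libraries, which the design text places in 3 mice per genotype.

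The 10 genes and all lists were chosen with earlier results of these data known. By a rule set with them, the text names all 10 genes, related genes that were called or, up to 3 per tissue, had separated groups and the smallest p, the 5 genes most like the members by each measure, and Psmb5, Psmb6 and Ctcf. Nlrc5, Psmb7, Psmb10, H2-Q10 in liver and H2-T22 were added after their values were seen. One related gene that the rule names is not reported here.

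Alternatives were DESeq2 1.42.0, other size factors, looser and stricter filters, a fit of all libraries, the replicate number as a block, and each library or tissue left out. The spleen fit and levels without the libraries that stood apart, the limma-voom 3.58.1 block and scaling over all 30 libraries were added after seeing the data. Deviations of same-numbered WT and Ctcf+/- libraries from their group means were correlated, and brain and kidney were taken as paired. The correlations were 0.207, 0.383 and 0.537 in brain and 0.209, 0.190 and 0.212 in kidney. They were also above 0 in liver (0.0512, 0.118 and 0.277) and muscle (0.0829, 0.183 and 0.271), and mixed in spleen (-0.472, -0.227 and 0.475). Whether the numbers mark a pairing in any tissue was not settled by these values.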

Additional observations from a re-analysis of the deposited data

Results flagged for a closer look

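Cd1d1, a class I-like gene that presents lipids to natural killer T cells, was the single related gene whose genotype effect differed between tissues (adjusted p = 0.0106 by edgeR's interaction test over 24262 genes). It was thus 1 of 55 related genes tested, where edgeR called 0.758% of all genes. DESeq2 also called 1 related gene for the interaction, where it called 3.81% of all genes. In muscle its WT libraries measured 0.960, 0.765 and 0.679 CPM and its Ctcf+/- libraries 3.21, 1.44 and 2.63, a log2 fold change of 1.60 ± 0.32 that edgeR did not call in the fit of muscle alone (adjusted p = 0.259). It was called in muscle by edgeR with the replicate block (adjusted p = 0.0313), without a filter on low counts (0.0417) and in the fit of all 30 libraries (0.00122), and by DESeq2 (0.00026). Scaling by total counts or DESeq2 size factors, a stricter filter and leaving out any 1 library gave adjusted p-values of 0.146 to 0.734 by edgeR. The log2 fold change was -0.41 ± 0.22 in spleen (-0.41 also without spleen WT 1 and Ctcf+/- 2), -0.25 ± 0.17 in brain, -0.24 ± 0.22 in kidney and 0.061 ± 0.12 in liver. Without muscle, or without muscle Ctcf+/- 1, no related gene was called for an interaction.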

How the results depend on the processing

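No member was called in any single tissue, or for an interaction, under any alternative run. Of 660 refitted log2 fold changes of the 10 genes within tissues, 626 kept the sign of the value reported. The 34 that changed sign concern H2-D1 and H2-K1 in liver, H2-D1, H2-T23, Psmb8 and Tap2 in spleen, H2-T23, Psmb8, Psmb9, Tap1 and Tap2 in brain, and H2-T23 and Tap2 in muscle, and 27 of them came from leaving out 1 library. Other scalings changed 3 of 150 signs.

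The number of members called for the shared effect was 0 without brain, kidney, liver or spleen, 1 without muscle, and 1 to 2 with 1 library left out, at log2 fold changes of 0.26 to 0.33 for H2-Q4 and 0.47 to 0.62 for H2-Q7. Related genes called for it numbered 1 with DESeq2, without a filter, with 10 counts in every library, without brain and with the limma-voom block, and 0 to 1 with 1 library left out. Related genes called in kidney numbered 1 with DESeq2, and in muscle 1 with DESeq2, without a filter, in the fit of all 30 libraries and with the replicate block, the gene in muscle being Cd1d1. Related genes called for the interaction numbered 0 without muscle and 0 to 1 with 1 library left out. The median of the members in liver was 0.26 with total-count scaling. With 1 library left out that median ranged from 0.15 to 0.47 in muscle, from -0.015 to 0.34 in brain, from 0.12 to 0.27 in kidney, from 0.0080 to 0.26 in spleen and from 0.073 to 0.25 in liver. The causes were not tested.

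With the replicate block the median was 0.18 in brain and 0.21 in kidney, the tissues taken as paired. The block changed no call of a member in any tissue. With TMM factors over all 30 libraries liver, not spleen, was highest for H2-K1, H2-T23 and B2m, and 7 of the 10 were highest in spleen. Brain levels of H2-Q7 rest on 18 to 30 counts in WT libraries. Outside brain every library held at least 174 counts of each member.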
